A study of Mus musculus with 9 samples.

Results

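The fetal-like and regenerating epithelium genes described here are 9 mouse genes, Ly6a, Msln, Clu, Il33, Anxa1, Anxa3, Sprr1a, Sprr2a3 and Gja1. They were taken by symbol and matched to the Ensembl identifiers of the deposited tables. All 9 were found among the 46517 genes of each table, and all 9 had enough reads to be tested, in every library of each matrix. Polyadenylated RNA had been sequenced from colonies of intestinal stem cells on day 4 in 1 of 3 matrices, with 3 libraries per matrix. The matrices were Matrigel, non-degradable PEG and degradable PEG. Matrigel is a basement membrane extract of a mouse tumour, and PEG is polyethylene glycol, a synthetic polymer that forms a hydrogel. Dissociated cells had formed colonies in all 3 matrices under the same factors, namely R-spondin, noggin, EGF, CHIR99021 (a GSK3 inhibitor) and valproic acid (a histone deacetylase inhibitor), so the Matrigel colonies carried these agents too. The sources used here do not give the strain, genotype, sex or age of the mice, nor the make-up of either gel.

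When the intestinal epithelium is injured, cells of the crypt can take on a state that resembles the epithelium of the fetus, in which adult stem cell genes give way to genes such as Ly6a, Clu and Anxa1. The state is associated with YAP signalling and with contact of cells with altered matrix, and it ends as the crypt is rebuilt. Fetal epithelium grown in gels forms round spheroids that express the same genes.

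Each library held between 38016227 and 47211981 reads assigned to genes. Levels are given as CPM, counts per 1000000 assigned reads after scaling of the libraries. The squared difference between replicates of a matrix averaged 10.1 to 55.7 times the variance of sampling noise per gene, so no library was a copy of another. The labelled cells carried their markers. The 9 epithelial markers, among them Epcam and Vil1, summed to 5263 to 5520 CPM in Matrigel. In degradable PEG they summed to 6043 to 6819 CPM and in non-degradable PEG to 5568 to 6659 CPM. The 12 crypt base stem cell markers, among them Lgr5, summed to 5970 to 6155 CPM in Matrigel. Their sums were lower in both gels, at 4995 to 5693 CPM in degradable and 4820 to 5046 CPM in non-degradable PEG. Single markers of this list went both ways. Smoc2 had means of 1944, 1386 and 1157 CPM in Matrigel, degradable and non-degradable PEG. Ascl2 had 15.3, 28.9 and 25.9 CPM in the same order. Markers of endothelium summed to at most 0.316 CPM. Markers of mesenchyme summed to at most 9.43 CPM, of squamous epithelium to at most 7.98 CPM, of gastric epithelium to at most 11.8 CPM and of blood cells to at most 6.26 CPM. Whether replicate libraries stem from separate cultures or animals is not said in the labels, so each p-value reflects no more than the scatter among these libraries, possibly a technical one. In bulk RNA, fewer cells of a type and less RNA per cell cannot be told apart.

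Most of the 9 genes stood higher in both PEG gels than in Matrigel. In non-degradable PEG, 6 of 9 were higher and none was lower, where 9.71% of all 14870 tested genes were higher and 7.13% lower. In degradable PEG, 7 of 9 were higher than in Matrigel and none was lower, where 7.42% of all tested genes were higher and 4.79% lower. With the replicate number as a block over all 9 libraries, 7 of 9 genes differed from Matrigel in non-degradable PEG, Anxa1 being added. Of all genes, 3877 in place of 2504 did. The labels do not say whether equal numbers are paired. DESeq2 also called 7 of 9 higher there and 7 of 9 in degradable PEG. No gene of the 9 was lower against Matrigel at an unadjusted p under 0.05 or by DESeq2 either. The median log2 fold change of the 9 genes was 1.61 in non-degradable and 1.57 in degradable PEG, beside -0.0021 and -0.016 over all genes. Both comparisons use the same Matrigel libraries. Between the PEG gels 1 of 9 genes, Msln, was called, higher in the non-degradable gel, where 0.814% of all genes were higher and 0.464% lower; at an unadjusted p under 0.05 it was 3 higher and 1 lower, and by DESeq2 2 higher and none lower. Counted by libraries alone, 6 genes had all 3 non-degradable PEG libraries above all Matrigel libraries and none below, against 21.8% and 21.6% of all genes. For degradable PEG these were 8 genes above and none below, against 15.6% and 14.8% (30.4% in either direction), and between the gels 3 above and 2 below, against 10% and 9.02%. Over all 3 matrices together, 7 of the 9 genes differed, and Il33 and Gja1 were not called (adjusted p = 0.193 and 0.991), beside 16.3% of all tested genes. Calls rest on edgeR's quasi-likelihood test with Benjamini-Hochberg adjustment over all genes, at an adjusted p under 0.05. For counts at an unadjusted p or by DESeq2, here and below, no share over all genes is given. Such counts therefore cannot be read as a trait of the genes counted. The 9 genes were chosen with earlier results of these data known, so their counts are a description.

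**Figure D1:**
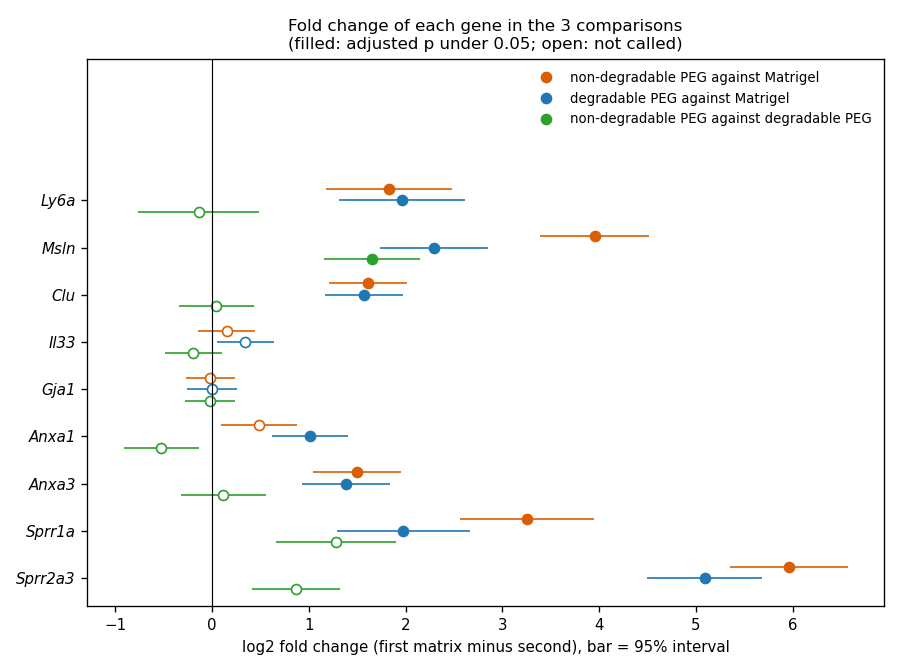
Log2 fold change (horizontal axis) of the 9 genes in the 3 comparisons, with bars for the 95% interval; filled points have an adjusted p under 0.05 and open points do not. Sprr2a3 lies farthest to the right, at 5.96 and 5.09 against Matrigel, and Gja1 lies close to 0 in all 3 comparisons.

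Ly6a encodes Sca-1, a small protein held in the membrane by a lipid anchor, which marks fetal spheroids and injured crypts. The gene (ENSMUSG00000075602, GRCm38, chromosome 15, 74994877 to 74998031, minus strand, 4 exon blocks) stood at 14.4, 43.9 and 23.4 CPM in Matrigel replicates 1 to 3. In degradable PEG its level was 97.2, 119.0 and 103.6 CPM, and in non-degradable PEG it was 83.8, 98.0 and 108.6 CPM. All 6 PEG libraries were above all 3 Matrigel libraries, and the PEG gels overlapped. Ly6a rose 3.55-fold in the non-degradable gel (log2 change 1.83 ± 0.296 SE, adjusted p = 0.00214) and 3.90-fold in degradable PEG (1.96 ± 0.297, adjusted p = 0.00162). Between the gels it differed by -0.14 on the log2 scale, with a 95% interval from -0.76 to 0.49.

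Ly6a lies in a family of like genes, and reads from shared stretches cannot be assigned to 1 of them. Of its 1297 windows of 50 transcribed bases, 19.0% also occur in another gene, mostly Ly6c1. The first 120 coding bases of both genes (GENCODE M21 transcripts) are shown because they make the likeness of the genes visible. Capitals mark the 8 bases that differ.
Ly6a: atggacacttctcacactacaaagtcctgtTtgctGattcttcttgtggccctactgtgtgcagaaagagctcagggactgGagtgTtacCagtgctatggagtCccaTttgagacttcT
Ly6c1: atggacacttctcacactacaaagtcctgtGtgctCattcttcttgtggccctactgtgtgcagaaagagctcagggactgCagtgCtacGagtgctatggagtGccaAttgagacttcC
The longest run of coding bases that both share in these transcripts is 45 bases. The count of each gene holds only reads that aligned to 1 place.

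Of 24 genes of the Ly6 family, 11 had enough reads to be tested. Against Matrigel, 5 of these rose and 2 fell in the non-degradable gel, while 3 rose and 2 fell in the degradable gel. These counts hold Ly6a itself. Of the 10 other tested genes, 4 rose and 2 fell in the non-degradable gel, and 2 rose and 2 fell in the degradable gel. The shares over all tested genes are 9.71% higher and 7.13% lower, and 7.42% and 4.79%. Ly6c1, a surface antigen best known from blood cells, stood at 0.282 to 1.52 CPM in Matrigel, 6.15 to 8.40 in degradable PEG and 7.32 to 16.1 in non-degradable PEG. It rose by 3.42 ± 0.433 on the log2 scale in non-degradable PEG (adjusted p = 4.96e-04) and by 2.86 ± 0.431 in degradable PEG (adjusted p = 0.00158). Ly6d was rare, at means of 0.278 CPM in Matrigel, 0.579 in degradable PEG and 2.05 in non-degradable PEG. It was higher in the non-degradable than in the degradable gel (1.82 ± 0.383, adjusted p = 0.0475), a call that was lost without Matrigel replicate 3 or any 1 PEG library. Lypd1 had means of 0.444 CPM in Matrigel, 0.0934 in degradable PEG and 0.0844 in non-degradable PEG. Ly6d passed the filter on low counts only through the PEG libraries where it is high, and Lypd1 only through Matrigel, so their place in the counts against Matrigel is a description. Ly6e, the most abundant tested gene of the family in counts, did not pass in any comparison (adjusted p from 0.195 to 0.765). Blood cell markers summed to 2.61 to 3.15 CPM in Matrigel, 4.10 to 4.45 CPM in degradable PEG and 4.52 to 6.26 CPM in non-degradable PEG. Of that list Ptprc had no count in any library and Itgam rose in non-degradable PEG (1.22 on the log2 scale, adjusted p = 0.00311), and the part of these markers in the Ly6c1 result was not tested.

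Msln encodes mesothelin, a membrane glycoprotein of the lining of body cavities that also appears in regenerating gut epithelium. The gene (ENSMUSG00000063011, chromosome 17, 25748613 to 25754378, minus strand, 15 exon blocks) gave 2.43, 2.88 and 1.08 CPM in Matrigel, from 49 to 137 reads per library. Its level was 10.6, 9.99 and 10.8 CPM in degradable PEG and 28.6, 32.2 and 38.1 CPM in non-degradable PEG. The 3 matrices did not overlap at any point of this order. Msln rose 15.5-fold in the non-degradable gel (log2 change 3.95 ± 0.258, adjusted p = 1.26e-05) and 4.91-fold in degradable PEG (2.30 ± 0.255, adjusted p = 2.68e-04). It was 3.15-fold higher in the non-degradable than in the degradable gel (1.66 ± 0.225, adjusted p = 0.0111). That last call was lost without degradable PEG replicate 2 (adjusted p = 0.0678).

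Some markers of mesothelium moved with Msln. The 7 markers of the list summed to 3.13 to 3.94 CPM in Matrigel, 4.30 to 6.28 CPM in degradable PEG and 7.44 to 13.0 CPM in non-degradable PEG. Of these markers 4 were tested, and the rise of the sums over Matrigel came mostly from the uroplakin genes. In Matrigel and degradable PEG, Gpm6a held the largest mean of the list. Upk1b rose from 0.977 to 3.12 CPM in non-degradable PEG (adjusted p = 0.00357) and was not called in degradable PEG (1.62 CPM, adjusted p = 0.154). Upk3b had means of 0.0705, 0.682 and 4.48 CPM in Matrigel, degradable and non-degradable PEG. It passed the filter only through the PEG libraries, so no test against Matrigel is given, and between the gels its adjusted p was 0.0292. Gpm6a stood at 2.01, 1.99 and 1.86 CPM in the same order and Lrrn4 at 0.432, 0.719 and 0.632 CPM, and neither was called. Defining mesothelial transcription factors were absent or nearly so, with no count of Bnc1 in any library and a mean of 0.0144 CPM for Wt1 in Matrigel, 0.0174 CPM in degradable PEG and 0 in non-degradable PEG. The part of these markers in the Msln result was not tested.

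**Figure D2:**
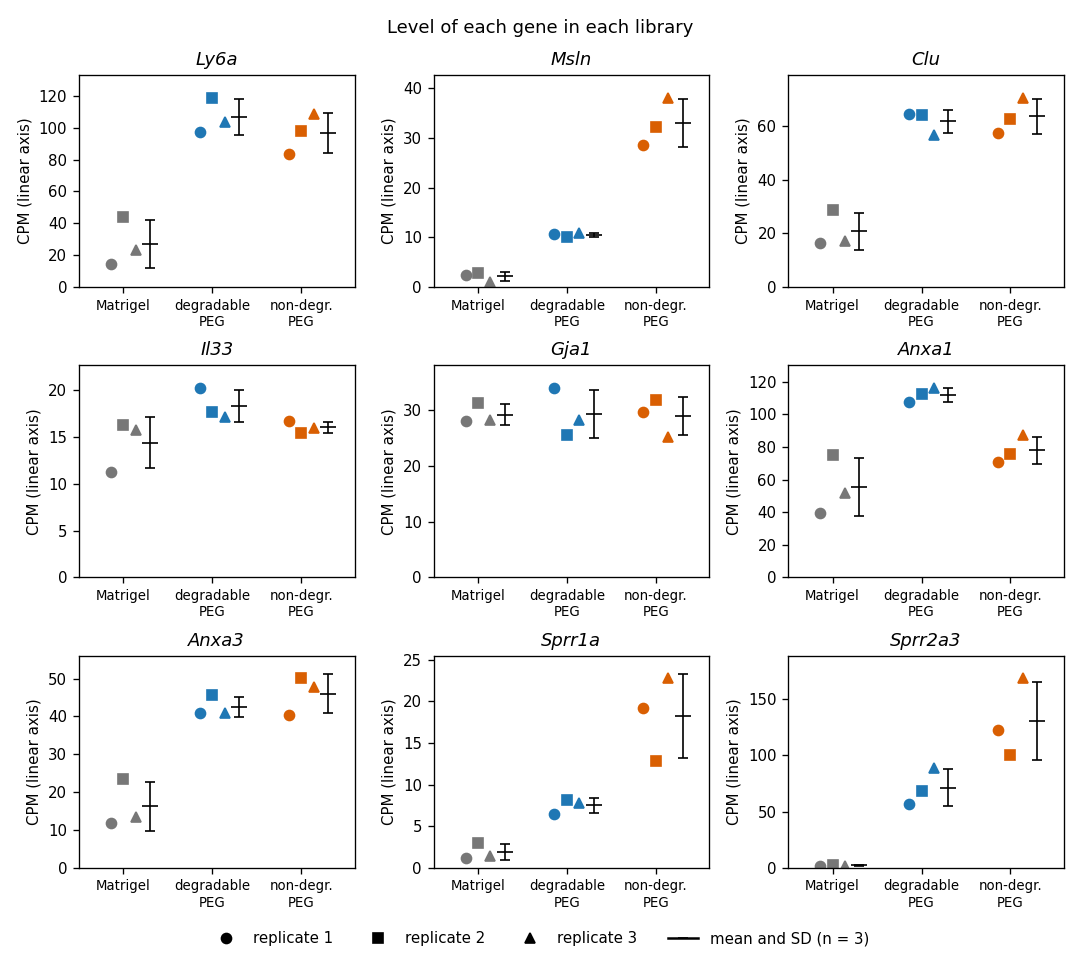
CPM (linear vertical axis from 0) of the 9 genes in each of the 9 libraries, by matrix; symbols mark replicates 1 to 3, and the black bar gives mean and SD (n = 3). For Ly6a, Clu and Anxa3 the PEG gels lie together above Matrigel, and for Msln, Sprr1a and Sprr2a3 the 3 matrices form steps, with Msln at means of 2.13, 10.5 and 33.0 CPM.

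Clu encodes clusterin, a secreted chaperone that marks the revival stem cells of the damaged intestine. Its gene (ENSMUSG00000022037, chromosome 14, 65968483 to 65981547, plus strand, 14 exon blocks) stood at 16.3, 28.9 and 17.3 CPM in Matrigel, at 64.5, 64.2 and 56.8 CPM in degradable PEG and at 57.6, 62.8 and 70.7 CPM in non-degradable PEG. The lowest PEG library held 56.8 CPM and the highest Matrigel library 28.9 CPM, while the PEG gels overlapped. Clu rose 3.06-fold in the non-degradable gel (log2 change 1.61 ± 0.183, adjusted p = 2.69e-04) and 2.97-fold in degradable PEG (1.57 ± 0.183, adjusted p = 3.73e-04). The difference between the gels was 0.043 on the log2 scale, with a 95% interval from -0.34 to 0.43, and no 50-base window of Clu occurs in another gene.

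Il33 encodes interleukin 33, a nuclear cytokine of the IL-1 family that damaged epithelium releases as an alarm signal. The gene (ENSMUSG00000024810, chromosome 19, 29925114 to 29960718, plus strand, 10 exon blocks) gave 11.2, 16.2 and 15.7 CPM in Matrigel, 20.2, 17.6 and 17.1 CPM in degradable PEG and 16.6, 15.4 and 15.9 CPM in non-degradable PEG. Every degradable PEG library was above every library of the other matrices, and Matrigel and non-degradable PEG overlapped. No comparison passed. The log2 fold change was 0.34 ± 0.134 in degradable PEG against Matrigel (adjusted p = 0.124, 95% interval 0.050 to 0.64) and 0.15 ± 0.135 in non-degradable PEG (adjusted p = 0.474, -0.14 to 0.45). Between the gels it was -0.19 ± 0.134 (adjusted p = 0.527). The receptor gene Il1rl1 was barely detected, with means of 0.0217 CPM in Matrigel, 0.00862 CPM in degradable PEG and 0 in non-degradable PEG, too few to test. Its partner Il1rap was present at means of 22.6, 19.8 and 22.9 CPM in the same order and did not pass. Of 5 tested genes of the receptor pathway, Il1rap among them, 1 was called in 1 comparison, non-degradable PEG against Matrigel. Over all tested genes, 16.8% were called in that comparison, 12.2% in degradable PEG against Matrigel and 1.28% between the gels. The called gene was the kinase Irak4, named after its values were seen, which rose in the non-degradable gel (0.35 ± 0.0994, adjusted p = 0.0356).

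Gja1 encodes connexin 43, a channel protein of gap junctions through which neighbouring cells exchange small molecules. Its gene (ENSMUSG00000050953, chromosome 10, 56377330 to 56402513, plus strand, 5 exon blocks) stood at 28.0, 31.3 and 28.1 CPM in Matrigel, 33.9, 25.5 and 28.1 CPM in degradable PEG and 29.7, 31.8 and 25.1 CPM in non-degradable PEG. All 3 matrices overlapped. The log2 fold change against Matrigel was -0.015 ± 0.117 in non-degradable PEG (95% interval -0.27 to 0.24, adjusted p = 0.946) and 0.0021 ± 0.117 in degradable PEG (-0.26 to 0.26, adjusted p = 0.994). Neither interval reached 0.3 in either direction. Of 20 connexin genes, 8 were tested, and edgeR called none in any of the 3 comparisons. Over all tested genes it called 16.8% in non-degradable and 12.2% in degradable PEG against Matrigel, and 1.28% between the gels. At an unadjusted p under 0.05, 2 connexin genes differed from Matrigel in each gel (1 higher and 1 lower) and 1 between the gels. DESeq2 called 1 connexin gene, between the gels.

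Annexins bind membrane phospholipids when calcium rises, and Anxa1, also a secreted signal that limits inflammation, is a marker of regenerating crypts. Anxa1 (ENSMUSG00000024659, chromosome 19, 20373428 to 20390944, minus strand, 15 exon blocks) stood at 39.7, 75.1 and 51.8 CPM in Matrigel, 107.5, 112.3 and 116.2 CPM in degradable PEG and 70.8, 75.8 and 87.2 CPM in non-degradable PEG. Degradable PEG was above both other matrices in every library, and non-degradable PEG overlapped with Matrigel through Matrigel replicate 2. Anxa1 rose 2.01-fold in degradable PEG (log2 fold change 1.01 ± 0.179, adjusted p = 0.00391). In non-degradable PEG the log2 fold change was 0.49 ± 0.178 and was not called (adjusted p = 0.0822). It was called in 4 alternatives, without Matrigel replicate 2 (0.77, adjusted p = 0.00368), with the replicate number as a block (0.52, adjusted p = 0.0326), by DESeq2 (adjusted p = 0.0341) and without a filter on low counts (adjusted p = 0.0116). Between the gels Anxa1 differed by -0.52 ± 0.177 (adjusted p = 0.212, 95% interval -0.91 to -0.13), and it was called lower in non-degradable PEG without a filter (adjusted p = 0.0202) and in a fit of the PEG gels alone (adjusted p = 0.0269).

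Anxa3 (ENSMUSG00000029484, chromosome 5, 96793339 to 96845966, plus strand, 15 exon blocks) gave 11.8, 23.6 and 13.4 CPM in Matrigel, 41.0, 45.5 and 40.8 CPM in degradable PEG and 40.3, 50.1 and 47.8 CPM in non-degradable PEG. Both gels were above Matrigel in every library and overlapped with each other. Anxa3 rose 2.83-fold in non-degradable PEG (1.50 ± 0.208, adjusted p = 8.36e-04) and 2.61-fold in degradable PEG (1.38 ± 0.208, adjusted p = 0.00156). Reads in 112 bases that Anxa3 shares with the gene model Gm42603 on the same strand cannot be assigned. The coding sequences of Anxa1 and Anxa3 are 54.6% identical and share no run above 13 bases, and no 50-base window of Anxa1 occurs in another gene.

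Of 12 annexin genes, 11 were tested. Against Matrigel, 5 were higher and 1 lower in each PEG gel, where the shares over all tested genes are 9.71% and 7.13% for the non-degradable and 7.42% and 4.79% for the degradable gel. Anxa2, which links membranes to actin, rose by 1.42 ± 0.177 in non-degradable PEG (adjusted p = 4.66e-04) and by 1.16 ± 0.177 in degradable PEG (adjusted p = 0.00169). Anxa9, at no more than 2.37 CPM, rose by 1.10 and 1.29 (adjusted p = 0.00507 and 0.00227). Anxa10, known from gastric epithelium, had means of 0.253 CPM in Matrigel, 0.542 in degradable PEG and 1.77 in non-degradable PEG. Anxa10 passed the filter only through the PEG libraries where it is high. Its place in the annexin counts against Matrigel is therefore a description, and no test against Matrigel is given for it. It was higher in the non-degradable than in the degradable gel (1.71 ± 0.314, adjusted p = 0.0298). That difference was not called without non-degradable PEG replicates 1 or 3 or degradable PEG replicates 2 or 3. Gastric markers summed to 7.35 to 7.86 CPM in Matrigel, 8.65 to 10.6 CPM in degradable PEG and 9.09 to 11.8 CPM in non-degradable PEG. Most of this was Atp4a, at means of 6.87, 8.70 and 9.90 CPM in the same order, while Gkn1 and Gkn2 had no count in any library. Of the 2 gastric markers tested, 1 was called higher in non-degradable and none in degradable PEG, beside 9.71% and 7.42% of all tested genes. The part of the gastric markers in the Anxa10 result was not tested. The lower genes, named after their values were seen, were Anxa11 in non-degradable PEG (-0.29, adjusted p = 0.0317) and Anxa13 in degradable PEG (-0.44, adjusted p = 0.0318). Anxa4 was the most abundant annexin in counts and did not pass, with means of 861 CPM in Matrigel, 797 in degradable PEG and 886 in non-degradable PEG.

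Small proline-rich proteins are cross-linked into the tough envelope of squamous cells and are also induced in the gut by injury and microbes. Sprr1a (ENSMUSG00000050359, chromosome 3, 92483952 to 92485895, minus strand, 2 exon blocks) gave 1.23, 3.03 and 1.41 CPM in Matrigel, from 48 to 144 reads. Its level was 6.52, 8.19 and 7.83 CPM in degradable PEG and 19.2, 12.8 and 22.8 CPM in non-degradable PEG. The 3 matrices did not overlap. Sprr1a rose 9.55-fold in the non-degradable gel (log2 change 3.26 ± 0.315, adjusted p = 1.42e-04) and 3.93-fold in degradable PEG (1.98 ± 0.313, adjusted p = 0.00214). Between the gels the log2 difference was 1.28 ± 0.282 and was not called (adjusted p = 0.0582, 95% interval 0.66 to 1.90). That call changed in 7 of 15 alternatives. Sprr1a was called higher by DESeq2 (adjusted p = 4.70e-04), without a filter on low counts (2.00e-04), in a fit of the PEG gels alone (0.0199) and with the replicate block (0.0395). It was also called without Matrigel replicate 1 (0.0363), Matrigel replicate 2 (0.0217) or non-degradable PEG replicate 2 (0.0439).

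Sprr2a3 (ENSMUSG00000074445, chromosome 3, 92285417 to 92291405, plus strand, 2 exon blocks) differed most. It stood at 1.56, 2.78 and 1.87 CPM in Matrigel, from 61 to 132 reads, at 56.7, 68.6 and 88.9 CPM in degradable PEG and at 122.4, 100.1 and 168.5 CPM in non-degradable PEG. The lowest PEG library was 56.7 CPM and no matrix overlapped with another. Sprr2a3 rose 62.2-fold in non-degradable PEG (5.96 ± 0.276, adjusted p = 1.35e-06) and 34.1-fold in degradable PEG (5.09 ± 0.270, adjusted p = 5.96e-06). Between the gels the log2 difference was 0.87 ± 0.208 and was not called (adjusted p = 0.0782, 95% interval 0.41 to 1.33). It was called without a filter on low counts (adjusted p = 2.80e-04) and with the replicate block (adjusted p = 0.0205).

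Sprr2a3 has 2 near-copies next to it on chromosome 3, Sprr2a1 and Sprr2a2, and 61.1% of its 2833 windows of 50 transcribed bases also occur in another gene, as do 96.3% of those of Sprr2a1 and 96.5% of those of Sprr2a2. Its whole coding sequence is shown because it bears on which copy the reads came from (GENCODE M21, 249 bases without the stop codon). Capitals mark the 3 bases that differ from Sprr2a1, whose coding sequence is the same as that of Sprr2a2 in all 249 bases.
Sprr2a3: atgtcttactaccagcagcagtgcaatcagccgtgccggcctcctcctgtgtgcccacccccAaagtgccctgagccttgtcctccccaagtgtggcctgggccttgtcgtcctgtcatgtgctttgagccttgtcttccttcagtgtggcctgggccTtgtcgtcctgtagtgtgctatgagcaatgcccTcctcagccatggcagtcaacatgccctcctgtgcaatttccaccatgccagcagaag
Of the reads assigned to the 3 copies, 96.2% were assigned to Sprr2a3 in Matrigel, 98.2% in degradable PEG and 97.9% in non-degradable PEG. Reads that align to several copies were not counted, so the split between the copies is uncertain. It is tilted towards Sprr2a3, which shares fewer of its windows than the other copies do. Their summed level was 2.15 ± 0.650 CPM in Matrigel, 72.7 ± 16.6 CPM in degradable PEG and 133.1 ± 35.0 CPM in non-degradable PEG (SD, n = 3).

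Of 15 Sprr genes, 4 were tested, Sprr1a, Sprr2a3 and its near-copies. Sprr2a1 stood at 0.0256 to 0.044 CPM in Matrigel, 0.394 to 0.853 in degradable PEG and 0.872 to 1.35 in non-degradable PEG. Sprr2a2 stood at 0.022 to 0.0632, 0.519 to 0.982 and 1.37 to 1.74 CPM in the same order. Both copies were above Matrigel in all 6 PEG libraries, with at most 3 reads per Matrigel library, and they passed the filter only through the PEG libraries where they are high, so their values are a description without a test. Sprr1b and Sprr3 had no count in any library. The squamous keratins Krt5 and Krt14 were near 0, with means of at most 0.0487 and 0.154 CPM, and Trp63 had a mean of at most 0.00877 CPM. Other squamous markers were detected. Krt4 had means of 2.04, 2.33 and 2.68 CPM in Matrigel, degradable and non-degradable PEG. Lor had 2.51, 2.09 and 2.07 CPM and Krt10 had 1.40, 1.05 and 1.04 CPM in the same order. Krt4, Lor and Krt10 were not called, and the part of squamous markers in the Sprr results was not tested.

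Promoter windows of RefSeq (GRCm38.p6) were matched for 5 of the 9 genes. They were searched on both strands, in the 250 bases before each annotated start, for the AP-1 letters TGANTCA and the TEAD letters CATTCC. Of 32851 windows of all genes, 6.75% hold the AP-1 letters and 12.6% the TEAD letters, and no match of one motif overlapped a match of the other in these windows. The promoters of Sprr1a, which rose in both gels, and Gja1, which was not called, are shown because both hold the AP-1 letters, set in capitals. That of Sprr2a3 is shown for its copies, and its capitals mark the 222 bases that also stand in the windows of Sprr2a1 and Sprr2a2. The windows are chr3:92485882-92486131 on the minus strand, chr10:56377050-56377299 on the plus strand and chr3:92285054-92285303 on the plus strand, each written 5′ to 3′ along its gene.
Sprr1a: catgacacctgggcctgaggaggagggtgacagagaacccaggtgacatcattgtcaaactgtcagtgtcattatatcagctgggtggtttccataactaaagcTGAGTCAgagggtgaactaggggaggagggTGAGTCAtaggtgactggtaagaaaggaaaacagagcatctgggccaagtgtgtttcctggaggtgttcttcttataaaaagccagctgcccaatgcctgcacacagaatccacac
Gja1: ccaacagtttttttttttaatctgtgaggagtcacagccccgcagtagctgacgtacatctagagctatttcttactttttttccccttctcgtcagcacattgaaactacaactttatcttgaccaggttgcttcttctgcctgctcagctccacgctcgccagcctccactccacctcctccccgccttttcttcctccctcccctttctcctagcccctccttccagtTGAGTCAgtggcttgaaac
Sprr2a3: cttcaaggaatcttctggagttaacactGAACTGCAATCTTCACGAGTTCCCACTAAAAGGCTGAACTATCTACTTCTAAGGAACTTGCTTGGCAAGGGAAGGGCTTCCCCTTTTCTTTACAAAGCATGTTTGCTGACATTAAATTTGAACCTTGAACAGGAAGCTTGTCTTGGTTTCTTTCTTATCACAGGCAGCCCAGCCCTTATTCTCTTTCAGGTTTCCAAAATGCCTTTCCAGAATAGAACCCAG
The AP-1 letters lie 146 and 116 bases before the start of Sprr1a and 19 bases before that of Gja1. The TEAD letters lie in the window of Anxa1, 236 bases before its start, and in both Il33 windows, 131 and 107 bases before the start. Sprr2a3 holds neither set of letters in its window. A match describes the letters only, and these data hold no measure of binding.

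Compared per kilobase of annotated exon, the order of the 9 levels differed between the matrices. Ly6a came first in all 3, at 22.6 ± 12.5 CPM per kilobase in Matrigel, 88.5 ± 9.29 in degradable PEG and 80.4 ± 10.3 in non-degradable PEG (SD, n = 3). Sprr2a3 was next to last in Matrigel, at 0.718 ± 0.219 CPM per kilobase. It came after Ly6a and Anxa1 in degradable PEG (24.8 ± 5.64) and directly after Ly6a in non-degradable PEG (45.2 ± 12.1). Msln was last in Matrigel (0.696 ± 0.307) and above Il33 and Gja1 in non-degradable PEG (10.8 ± 1.57). Gja1 was last in both gels, at 2.85 ± 0.42 in degradable and 2.81 ± 0.33 in non-degradable PEG, and lay at 2.84 ± 0.182 in Matrigel. Exons that are annotated but not used, and shared stretches in the case of Sprr2a3, lower such a level.

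The spread between replicates was widest in Matrigel for most of these genes. Matrigel replicate 2 held the highest of the 3 Matrigel levels for all 9 genes, and replicate 1 the lowest for 8 of 9. The coefficient of variation in Matrigel ran from 6.40% for Gja1 to 55.4% for Ly6a, while Ly6a varied by 10.5% in degradable and 12.8% in non-degradable PEG. In the non-degradable gel replicate 3 was highest for 6 of 9 genes, and in the degradable gel each replicate was highest for 3. Such counts were not made over all tested genes, so whether these orders are particular to the 9 genes is not known. Without Matrigel replicate 2 the number of genes higher in non-degradable PEG was 7 in place of 6, and in degradable PEG it was 7 without any 1 library. The share of mitochondrial reads was 3.05% in Matrigel replicate 2 beside 3.00% and 3.99% in the other Matrigel libraries, and its part was not tested.

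**Figure D3:**
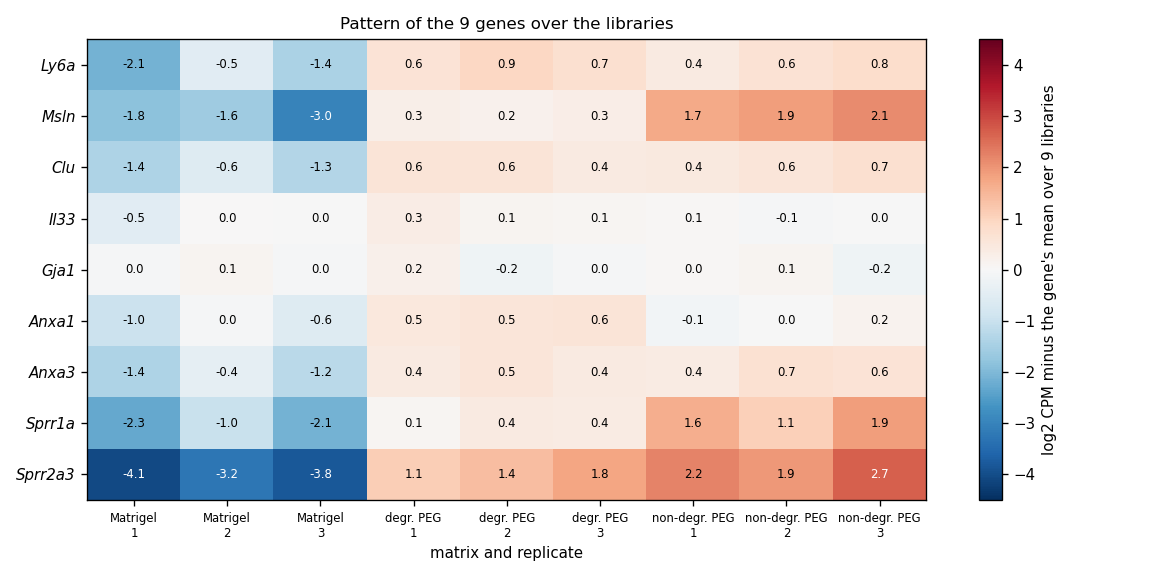
Log2 CPM of each gene (rows) in each library (columns) after subtracting the gene's mean over the 9 libraries; red is above and blue below the mean. The Matrigel columns are blue for most genes and palest in replicate 2, while Gja1 stays close to 0 throughout.

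Across the 9 libraries, the patterns of Clu, Anxa3 and Ly6a were closest to each other, with Pearson correlations of log2 CPM of 0.992 (Clu and Anxa3), 0.986 (Ly6a and Anxa3) and 0.982 (Ly6a and Clu). Msln ran closest to Sprr1a (0.966), and Gja1 correlated with no other of the 9 genes above 0.284. The points share the step between the matrices, and the values are a description over 9 libraries. Among 10640 other genes that averaged 5 CPM or more, the gene most like both Clu and Anxa3 was Ccn2, a secreted matrix-associated protein and a standard target of YAP (r = 0.993 and 0.992). Ccn2 had means of 4.85, 41.0 and 46.0 CPM in Matrigel, degradable and non-degradable PEG. Next for Clu came Atg9b (r = 0.990). Col18a1, a collagen of basement membranes, was most like Ly6a (r = 0.989) and second for Anxa3 (0.991), and Tnfsf9 was second for Ly6a (0.985). For Anxa1 the nearest genes were the chemokine Cxcl16 (r = 0.982) and the transcription factor Foxq1 (0.973), whose means rose in the order Matrigel, non-degradable PEG, degradable PEG as Anxa1's did. Sprr2a3 was nearest to the lactate exporter Slc16a3 (r = 0.988) and to Srxn1 (0.986). Sprr1a was nearest to the cell cycle inhibitor Cdkn2b (0.983) and to the cytokine Il18 (0.977), and Msln to Ldhd (0.984) and the myosin Myo7a (0.981). The nearest genes of Il33, Ttc7b and Parp8, and of Gja1, Ankrd26 and Iws1, reached only 0.913, 0.902, 0.933 and 0.929.

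A further 25 genes linked to fetal or regenerating epithelium were examined beside the 9, and 23 had enough reads to be tested. Some of them, among them Ly6c1, Ly6d, Ly6e and Anxa10, were also counted above with their families, so the counts overlap. Against Matrigel, 16 of the 23 were called higher and none lower in each gel, where 9.71% of all tested genes were higher in non-degradable and 7.42% in degradable PEG. Ly6d, Anxa10 and Igfbp7 entered these counts only through the PEG libraries where they are high. The list was chosen with earlier results of these data known, so its counts and medians are a description and no independent support. The median log2 fold change was 1.23 and 1.10. Left-out single libraries gave 14 to 17 higher genes in non-degradable and 12 to 16 in degradable PEG. Between the gels 2 genes were higher in the non-degradable one, Ly6d and Anxa10, and none was lower, beside 0.814% and 0.464% of all genes. That count fell to 0 without non-degradable PEG replicates 1 or 3 or degradable PEG replicates 2 or 3, and to 1 without Matrigel replicate 3, non-degradable PEG replicate 2 or degradable PEG replicate 1. Without non-degradable PEG replicate 3, Cldn4, named after its value was seen, was lower there (-1.03, adjusted p = 0.031). At an unadjusted p under 0.05, 5 genes were higher and 8 lower between the gels, and by DESeq2 2 and 2, with no share over all genes to set beside them.

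Igfbp7, a secreted protein that binds growth factors, had means of 0.169 CPM in Matrigel, 0.571 in degradable PEG and 1.20 in non-degradable PEG, with 4 to 14 reads per Matrigel library. In degradable PEG the largest rises after Ly6c1 were those of Plaur, the urokinase receptor, and of Ereg and Areg, ligands of the EGF receptor. Plaur stood at 6.25, 11.8 and 11.2 CPM in Matrigel, 36.8, 51.3 and 54.8 CPM in degradable PEG and 25.5, 20.96 and 44.5 CPM in non-degradable PEG. It rose by 2.28 ± 0.297 in degradable PEG (adjusted p = 6.68e-04) and by 1.63 ± 0.294 in non-degradable PEG (adjusted p = 0.00385). Areg gave 36.4, 68.7 and 42.6 CPM in Matrigel, 181, 219 and 191 CPM in degradable PEG and 98.9, 100.5 and 153 CPM in non-degradable PEG. The rise of Areg was 2.00 ± 0.229 in degradable PEG (adjusted p = 3.35e-04) and 1.25 ± 0.225 in non-degradable PEG (adjusted p = 0.00382), and that of Ereg was 2.11 ± 0.226 and 1.35 ± 0.225 (adjusted p = 2.36e-04 and 0.00248). Areg and Ereg were lower in every non-degradable than in every degradable PEG library, though neither difference was called (adjusted p = 0.156 and 0.138), where 9.02% of all genes show such an order.

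**Figure D4:**
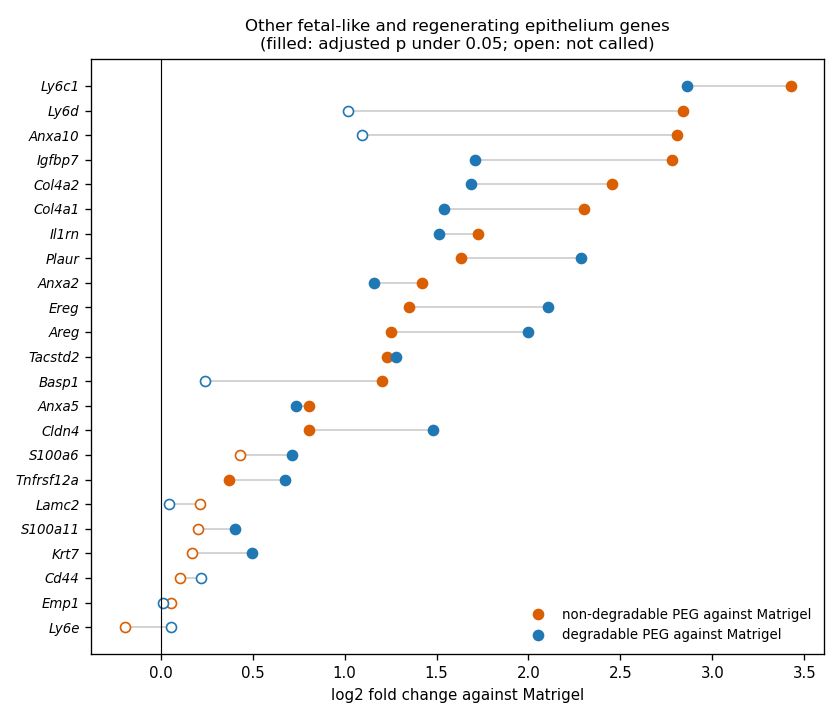
Log2 fold change against Matrigel (horizontal axis) of the 23 tested further genes in non-degradable PEG (orange) and degradable PEG (blue); filled points have an adjusted p under 0.05, and grey lines join the 2 values of a gene; Ly6d, Anxa10 and Igfbp7 passed the filter only through the PEG libraries. Most points lie to the right of 0, with Ly6c1 at 3.42 and 2.86, and Ly6e at -0.20 and 0.05 lowest in the plot.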

How the data were processed

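The authors deposited 1 table of read counts per gene for each of the 9 libraries. Per the submitters' processing notes, cutadapt 1.3, STAR 2.4.2a and HTSeq 0.6.1 were used with GRCm38; per the labels' protocols, libraries were stranded mRNA preparations. The sources used here do not give the annotation or strand setting. The 5 tally rows were removed; reads without a feature made up 7.29% to 11.2% and ambiguous reads 1.09% to 1.16% of assigned, featureless and ambiguous reads. Reads with several alignments, 65.2 to 71.8 per 100 assigned, were not counted to genes.

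Symbols came from GENCODE M21, which matched 46005 genes. In edgeR 4.0.16 (R 4.3.3), filterByExpr kept 14870 genes, libraries were scaled by TMM, and 1 quasi-likelihood fit of all 9 libraries gave each comparison. All tested genes entered the Benjamini-Hochberg adjustment. The SE is the absolute log2 fold change over the root of F, and intervals are 95%. DESeq2 1.42.0, other scalings and filters, a fit of 2 matrices, a replicate block and left-out libraries were alternatives. Figures and sequence searches used Python 3.11.15 and Biopython 1.88. The test was tried on simulated counts.

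The 9 genes and all lists were chosen with earlier results of these data known. Named list genes were called, with a log2 fold change of at least 1 in size, at most 4 per list and comparison; likeness took the 2 genes of highest Pearson correlation. Exceptions are marked. For pairing, deviations from matrix means of same-numbered libraries were correlated, and numbers were taken to pair 2 matrices if every value exceeded 0.1. This held for Matrigel and non-degradable PEG, at 0.176 to 0.331. It did not for degradable PEG with Matrigel (lowest 0.0712), though all its values exceeded those of unlike numbers (at most 0.0392). Nor did it for both gels (lowest 0.0197, unlike numbers up to 0.257). The replicate block was fitted over all 9 libraries at once, so it did not follow this split.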

Additional observations from a re-analysis of the deposited data

How the results depend on the processing

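Of the refits of the 9 single genes, 399 kept direction and side of the threshold, 15 passed where the reported test did not, 1 missed it and 14 turned sign. All sign changes concerned differences that were not called. For Gja1 in non-degradable PEG against Matrigel they gave 0.0016 with upper-quartile scaling, 0.0053 with a filter of 10 CPM and a range of -0.090 to 0.075 over left-out libraries. In degradable PEG against Matrigel Gja1 gave -0.010 without a filter, -0.0013 with the replicate block and -0.12 to 0.091 over left-out libraries, and between the gels -0.11 to 0.098. Left-out libraries gave -0.038 to 0.10 for Clu between the gels and -0.0015 to 0.25 for Il33 in non-degradable PEG against Matrigel. The number of the 9 genes that differed between the gels was 1 in the reported fit, 2 with DESeq2, 4 without a filter, 3 in a fit of the 2 gels only, 3 with the replicate block and 0 to 2 without 1 library. Against Matrigel it was 6 to 7 for the non-degradable gel and 7 for the degradable gel without 1 library. Over all genes the counts were 2504, 1815 and 190 (non-degradable PEG against Matrigel, degradable PEG against Matrigel, and between the gels) and 2424 over all 3 matrices. With a filter of 10 CPM, which tests fewer genes, they were 1511, 948, 91 and 1362, and with the replicate block 3877, 2783, 542 and 3894. Between the gels they were 512 with DESeq2 and 521 without a filter. Left-out libraries gave 1189 to 3247, 1086 to 2395, 19 to 242 and 1507 to 3109. The cause of these shifts was not tested. Calls of single genes changed for Anxa1, Sprr1a, Sprr2a3 and Msln, as given with each. The replicate block changed the calls of Anxa1 in non-degradable PEG against Matrigel and of Sprr1a and Sprr2a3 between the gels (adjusted p = 0.0395 and 0.0205). Between the gels the numbers were not taken to pair the libraries, and the labels do not settle this. In 17 of 18 cases a library's deviations correlated best with its own number in another matrix, a hint from the data and not from the design. Left-out libraries were chosen as an alternative for the further 25 genes after seeing the data. Low counts limit the rare genes, of which Ly6d and Anxa10 had means under 0.3 CPM in Matrigel.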
